A study of Mus musculus with 2688 samples.

Results

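Microglia of the cerebellum were compared with microglia of the corpus callosum in wild-type (WT) CD1 mice at 3 weeks of age. The comparison rests on 346 cells of the 2402 in the series that passed the cell filter, 167 from cerebellum and 179 from corpus callosum, in 6 of the 51 region samples. A region sample is all cells of 1 region and 1 replicate. Members were every sorted well labelled as cerebellum or corpus callosum at 3 weeks, 380 wells in all, that held at least 500 genes and at most 20% mitochondrial counts. The 3 cerebellum samples gave 62, 61 and 44 cells, and the 3 corpus callosum samples gave 59, 62 and 58.

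The series profiled single microglia from several regions of the central nervous system at embryonic stages, 3 weeks and 16 weeks, with 3 to 4 mice per region and age. Mice were shared between regions, so a cerebellum and a corpus callosum sample may come from 1 animal, and the labels do not say which. Brains were perfused, dissociated and separated on Percoll, and single cells were sorted into 384-well plates after staining for CD11b, CD45, Ly6C, Ly6G and CD206. Libraries were made with SmartSeq2, a full-length method without molecular identifiers, so a count is a read and not a molecule. No treatment or engineered allele is named for either group.

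Microglia are the resident macrophages of brain tissue. In the settled adult state they express a set of genes that includes P2ry12, Tmem119, Cst3 and Sparc, and during postnatal development and in disease some of them turn on genes of phagocytosis and lipid handling such as Apoe, Lpl, Spp1 and Lyz2. The cerebellum is a layered grey matter structure with its own white matter core, in which granule neurons are still being added and removed during the early weeks after birth. The corpus callosum is the large white matter tract between the cerebral hemispheres, and it gains myelin over the same weeks.

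All 6 samples lie on plate P215. The corpus callosum filled plate columns 1 to 12 and the cerebellum columns 13 to 24, so region and plate position cannot be told apart. Summed counts were lower in cerebellum (9733523 to 12291481 reads per sample) than in corpus callosum (14940696 to 21508927). Cerebellar cells also held fewer genes, with sample medians of 2537.5, 2507 and 2591 against 2777, 2870 and 2953. After every cell was thinned to 57101 reads, which left out 7, 12 and 10 shallower cells in cerebellum and 3, 2 and 1 in corpus callosum, the medians were 2223, 2206 and 2220.5 in cerebellum and 2301.5, 2429.5 and 2512 in corpus callosum. The groups did not overlap in either form, and the exact two-sided permutation test gave p = 0.1, the smallest its 20 splits allow (0.233 after adjustment over 7 cell measures). Cerebellum replicate 3 kept 71.0% of its wells, against 92.2% to 96.9% in the other 5 samples. The part of depth and of genes per cell in the results below was not tested, apart from the values given after thinning.

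The cells carried the microglia markers the label calls for. Csf1r had reads in all 346 cells, and 345 of 346 had reads from at least 5 of the 9 markers checked. Reads of Mog, Cldn5, Ly6c2 and Cd79a were found in at most 1 cell. Of 9 markers of border macrophages, the macrophages of meninges and vessels, Mrc1 had reads in 13 of 167 cerebellar and 3 of 179 callosal cells. Mrc1 encodes CD206, one of the proteins stained at the sort. Pf4 had reads in 0 and 1 cells, and 2 cells, both from cerebellum replicate 2, had reads from at least 3 of the 9. Stab1 had reads in 94 cerebellar and 102 callosal cells.

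In edgeR's test of the 2 regions 1 gene passed the adjusted threshold. Cst3, which encodes cystatin C, a secreted inhibitor of cysteine proteases and one of the most abundant messages of microglia, was 1.58-fold lower in the cerebellum. Its level was 28339.7, 30245 and 28299.7 CPM (reads of the gene per set number of reads in the sample, with library sizes scaled by TMM) in the 3 cerebellum samples and 45949.8, 47839.8 and 43868 CPM in the 3 corpus callosum samples. The groups did not overlap, and the spread within each was small beside the gap between them. The log2 difference, cerebellum minus corpus callosum, was -0.66 ± 0.05 (SE), with an adjusted p of 0.0167 by edgeR's quasi-likelihood test over 12527 genes. The calls were thus 0.00798% of the genes tested. At an unadjusted p below 0.05 the same test held 333 genes lower in cerebellum (2.66%) and 355 higher (2.83%).

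DESeq2 on the same counts called 111 genes (0.886%), 69 higher and 42 lower in cerebellum, with Cst3 among them (adjusted p = 2.4e-07). A gene's 3 cerebellum values all lay below its 3 corpus callosum values for 797 genes (6.36%) and above them for 806 (6.43%). Over all genes the median log2 difference was 0.02, with 6438 genes higher and 6089 lower. Replicates are separate region samples and the design text names 3 to 4 mice per region, so the p-values measure the spread between these samples.

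**Figure D1:**
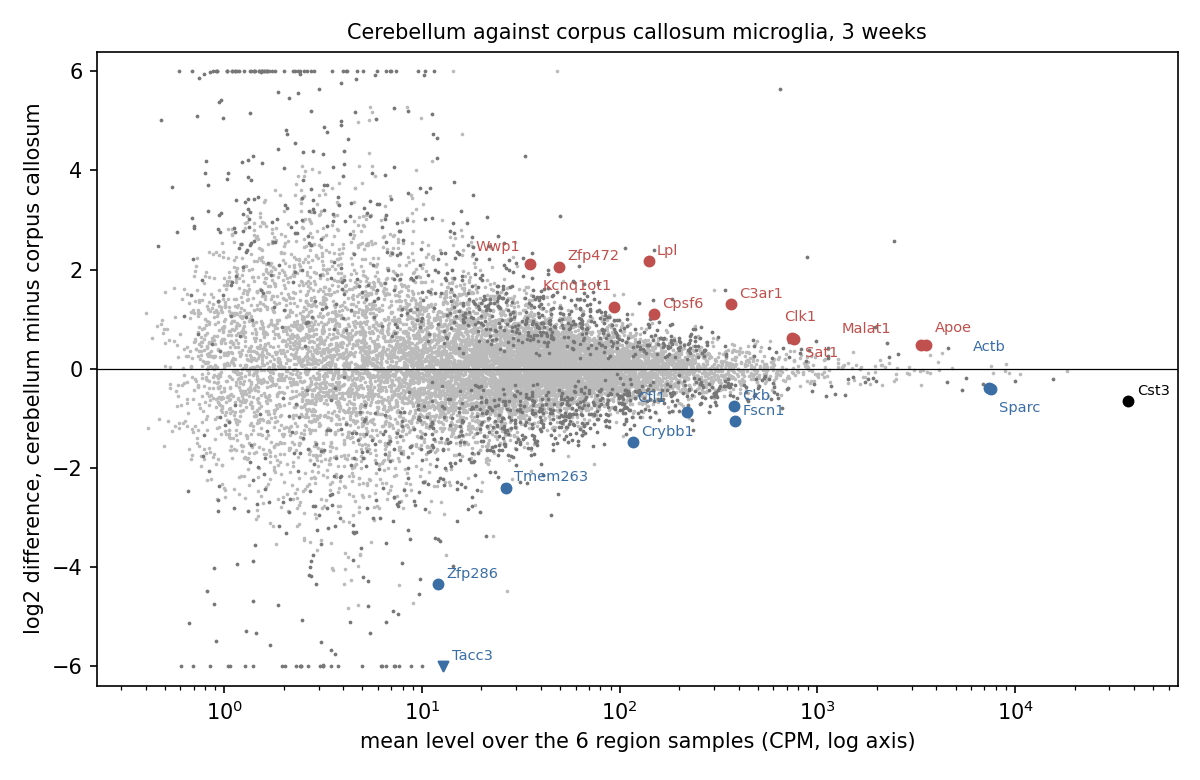
Each point is 1 of the 12527 genes tested, with its mean level over the 6 samples (CPM, log axis) on the horizontal axis and its log2 difference, cerebellum minus corpus callosum at 3 weeks, on the vertical axis, with values beyond ±6 drawn at the edge. Dark grey marks genes whose 3 and 3 samples do not overlap, red and blue the named genes higher and lower in cerebellum, and black Cst3, the gene that passed, which lies far to the right at -0.66. Tacc3, with no read in cerebellum, is drawn as a triangle at the lower edge.

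The lower Cst3 level was seen across the cells and not in a few of them. Cst3 lies on chromosome 2 (chr2:148871722-148875692, GRCm38) and had reads in all 346 cells. The median cell held 26064, 21522 and 25301 CPM in the 3 cerebellum samples and 46020.3, 43904 and 40334 CPM in the 3 corpus callosum samples. The sample medians did not overlap (exact two-sided permutation p = 0.1, the smallest possible). Only 23 of 167 cerebellar cells (13.8%) lay above the callosal median of 43946 CPM, and 21 of 179 callosal cells (11.7%) lay below the cerebellar median of 24543 CPM. The single cell with most Cst3 reads gave 3.62% of all cerebellar Cst3 counts and 1.64% of the callosal ones.

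**Figure D2:**
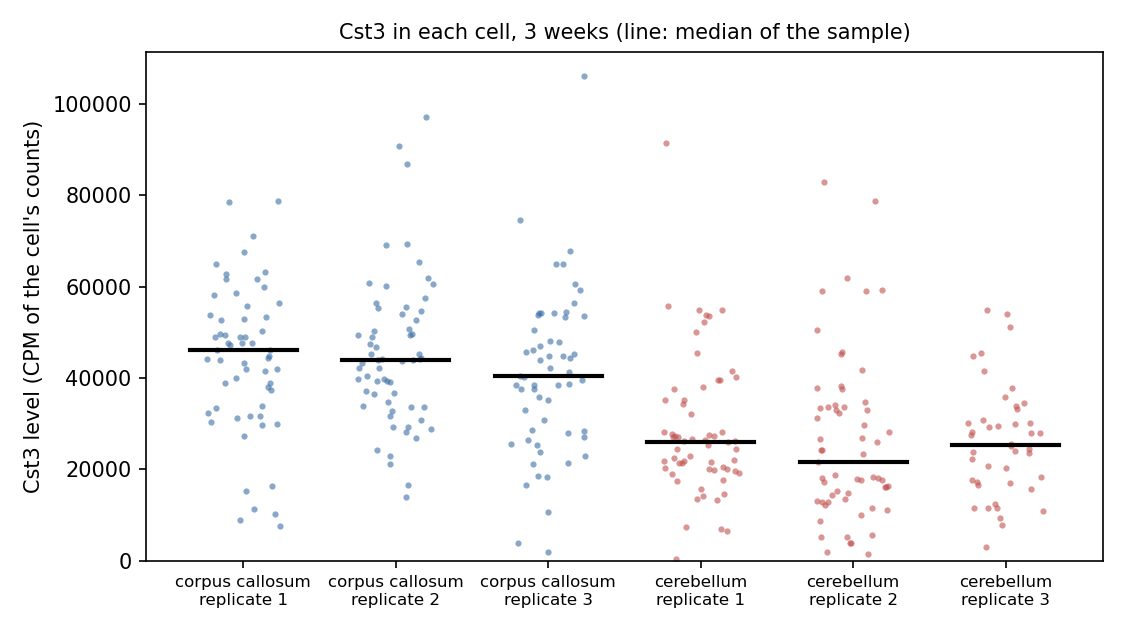
Cst3 level of each kept cell (CPM, vertical axis) in the 6 region samples, 1 point per cell, with the median of each sample as a bar. The 3 cerebellum medians lie between 21522 and 26064 CPM and the 3 corpus callosum medians between 40334 and 46020.3 CPM, while single cells of both regions spread over a wide range.

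Because region followed plate position, Cst3 was also read column by column. The 12 cerebellum columns ranged from 21669.6 to 36565 CPM (median 28720.5) and the 12 corpus callosum columns from 33073 to 52043 CPM (median 44466.5). The ranges overlapped at their ends, and the lowest corpus callosum column lay above the cerebellum median. At the border between the regions, column 12 held 43429 CPM and column 13 held 32306 CPM. Some neighbouring columns of the same region lay further apart. Columns 9 and 10 of the corpus callosum held 48705 and 33073 CPM, and columns 23 and 24 of the cerebellum 36565 and 22096 CPM. The left side of plate P215 (columns 1 to 12) held 1.55 times the Cst3 level of its right side. On the other 6 plates the higher side exceeded the lower by 1.03 to 1.17 times. Their sides also held different regions, and on plate P216 different ages as well (spinal cord of 3 weeks and cortex of 16 weeks). No plate therefore gives the part of plate side alone, and that part was not tested.

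**Figure D3:**
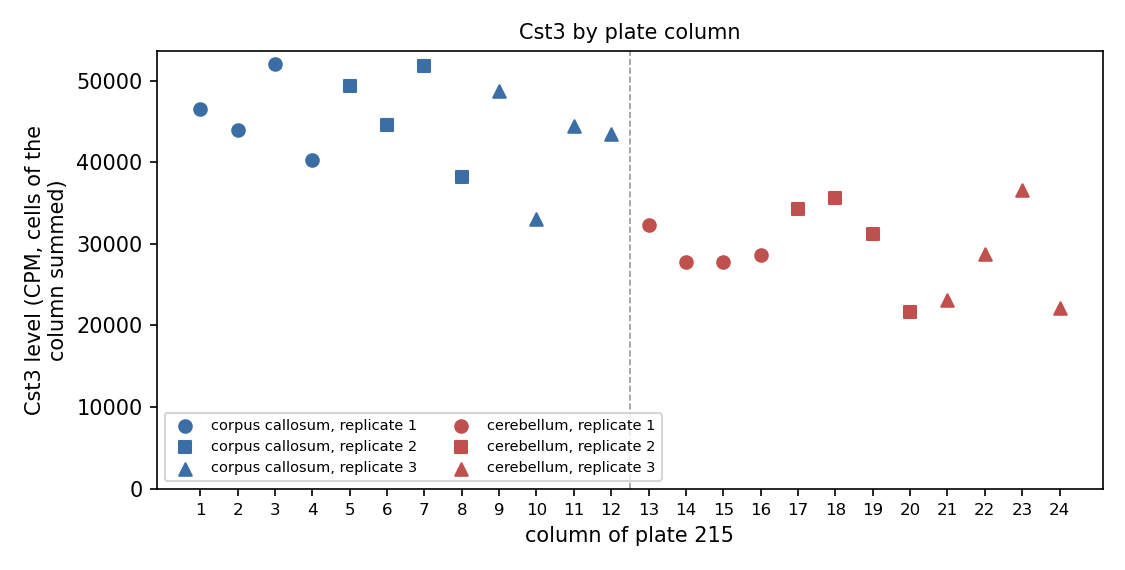
Cst3 level (CPM, vertical axis) in each of the 24 columns of plate P215 (horizontal axis), from the summed counts of the kept cells of that column, with corpus callosum in columns 1 to 12 and cerebellum in columns 13 to 24. A dashed line marks the border of the regions, where the level goes from 43429 CPM in column 12 to 32306 CPM in column 13. Within the corpus callosum it goes from 48705 CPM in column 9 to 33073 CPM in column 10.

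The direction of the Cst3 difference held in all 18 alternative settings, with log2 differences from -0.71 to -0.57, and 12 of the 18 called it. It lost its call with the counts as deposited (edgeR adjusted p = 1.00, log2 -0.57) and when 1 sample was left out in 5 of 6 cases. Those 5 adjusted p-values were 0.217, 0.0966 and 0.174 without cerebellum replicates 1, 2 and 3, and 0.0875 and 0.101 without corpus callosum replicates 1 and 2. With every cell thinned to the same number of reads the log2 difference was -0.64 (edgeR adjusted p = 0.0084).

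At 16 weeks the Cst3 levels of the regions overlapped. On a scale that joins both ages, Cst3 was at 31055, 29343, 31134 and 31989.5 CPM in 4 cerebellum samples and at 30991, 28012, 33495 and 33308 CPM in 4 corpus callosum samples. The log2 difference was -0.06 ± 0.07, with an edgeR adjusted p of 1.00. The region difference at 16 weeks minus that at 3 weeks was 0.65 ± 0.09 (edgeR adjusted p = 0.0197), a test in which 4 of 15243 genes passed (0.0262%). This call was lost with the counts as deposited (edgeR adjusted p = 1.00), with RLE size factors (0.0626) and without corpus callosum replicate 2 of 3 weeks (0.0527) or cerebellum replicates 1 (0.0811) or 4 (0.0764) of 16 weeks. At 16 weeks the regions lie on different plates, P218 for cerebellum and P217 for corpus callosum, so region and plate cannot be told apart there.

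Among the 5 regions of 3 weeks the cerebellum had the lowest Cst3 level. Scaled over all 51 region samples, it held 28181 ± 1103 CPM (SD, n = 3), followed by spinal cord at 33824 ± 1860 (SD, n = 3) and corpus callosum at 46348 ± 2003 (SD, n = 3). Hippocampus stood at 56159.8 ± 2282 and cortex at 57549 ± 3000.1 CPM (SD, n = 3 each). The last pair overlapped in range, while each other neighbouring pair in this order did not. The spinal cord, hippocampus and cortex samples came from other plates. At 16 weeks cerebellum (30024 ± 1266) and corpus callosum (30125 ± 2301, SD, n = 4 each) overlapped, and the embryonic groups ranged from 6557 to 8538 CPM in their means.

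**Figure D4:**
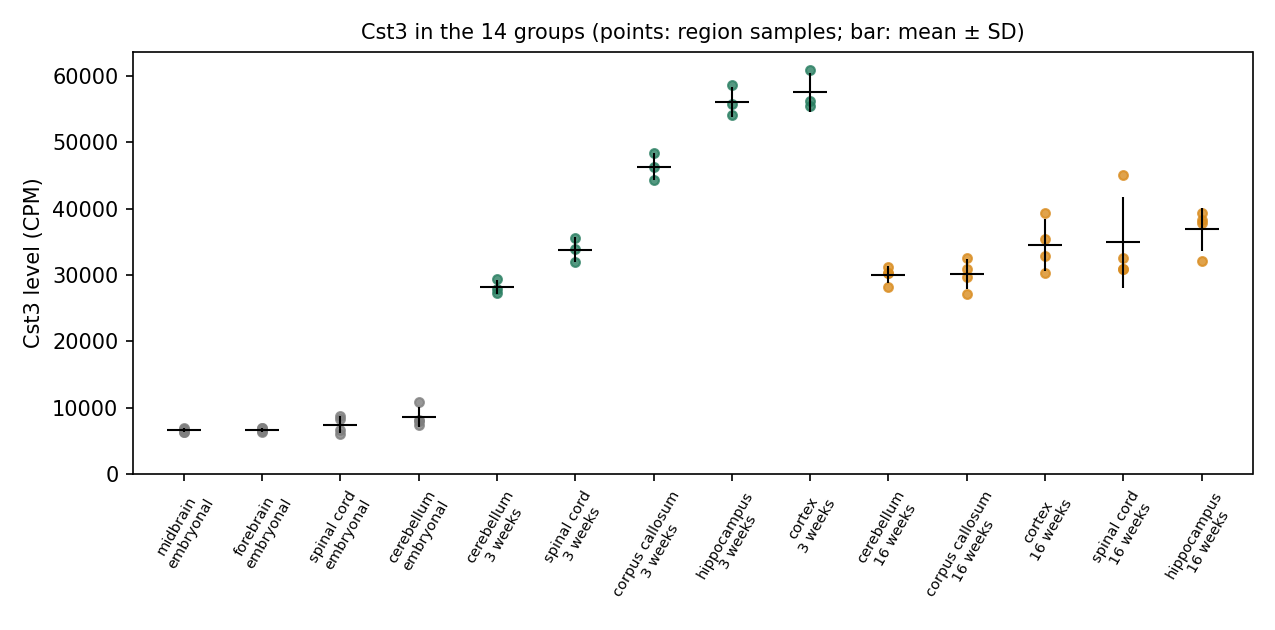
Cst3 level (CPM, vertical axis) of every region sample in the 14 groups of the series, 1 point per sample, with the group mean as a horizontal bar and the SD as a vertical one. At 3 weeks cerebellum is lowest with a mean of 28181 CPM and cortex highest with 57549 CPM, and at 16 weeks the means of cerebellum and corpus callosum are 30024 and 30125 CPM.

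Of 20 genes that mark settled microglia, 17 were lower and 3 higher in the cerebellum, with a median log2 difference of -0.22 beside 0.02 over all genes. Cst3 was the member that passed the test. For 9 of the 20 the groups did not overlap, all lower in cerebellum, where 6.36% of all genes did so. These were Crybb1, Csf1r, Cst3, P2ry12, Sall1, Selplg, Slc2a5, Sparc and Tmem119. The fold differences of these 9 ran from 1.16-fold (Csf1r) to 2.79-fold (Crybb1). DESeq2 called Cst3, Sparc and Crybb1, beside 0.886% of all genes. The list's median at 16 weeks was -0.24, and over the 18 alternatives at 3 weeks it ran from -0.30 to -0.19.

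Sparc, which encodes a matrix glycoprotein secreted by microglia, stood at 6279, 6801 and 6303 CPM in cerebellum and 8127, 8971 and 8849.7 CPM in corpus callosum. Each cerebellum sample lay below each corpus callosum sample. The log2 difference was -0.42 ± 0.07, with an adjusted p of 0.592 by edgeR and 0.025 by DESeq2. At 16 weeks it was -0.30 ± 0.11.

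Crybb1, a crystallin gene used as a marker of maturing microglia, had 62.9, 75.8 and 45.6 CPM in cerebellum and 165, 209 and 139.6 CPM in corpus callosum. The log2 difference was -1.48 ± 0.30 (edgeR adjusted p = 0.592, DESeq2 0.0026). After thinning, 45.5, 46.9 and 44.1% of the cerebellar cells held a read of it, against 80.4, 83.3 and 71.9% of the callosal cells. The share of cells with a read was lower in each cerebellum sample (exact two-sided permutation p = 0.1, the smallest possible), as for 8.39% of all genes. Crybb1 was named for groups that do not overlap in these same samples, so this share is no separate support.

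The receptors of this group were nearer to each other in the 2 regions. P2ry12, the purinergic receptor by which microglial processes sense ADP, was at 8704, 9383 and 9398 CPM in cerebellum and 9900.1, 11516 and 11145 CPM in corpus callosum. Csf1r, the receptor for the survival factors CSF1 and IL-34, was at 14007, 15091 and 13899 and 16795, 16765 and 16242 CPM. Neither pair overlapped, and the log2 differences were -0.24 ± 0.08 and -0.21 ± 0.06. Tmem119, a membrane protein of microglia, had a log2 difference of -0.42 ± 0.12, the adhesion ligand Selplg -0.32 ± 0.09, the fructose transporter Slc2a5 -0.52 ± 0.14 and the transcription factor Sall1 -0.23 ± 0.13. Cx3cr1, the fractalkine receptor, had -0.08 ± 0.10 and Gpr34 0.02 ± 0.14, each with overlapping groups. Fcrls varied within both regions (3313, 3839.7 and 1770.0 against 3898, 4733 and 2578 CPM) and its groups overlapped as well.

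**Figure D5:**
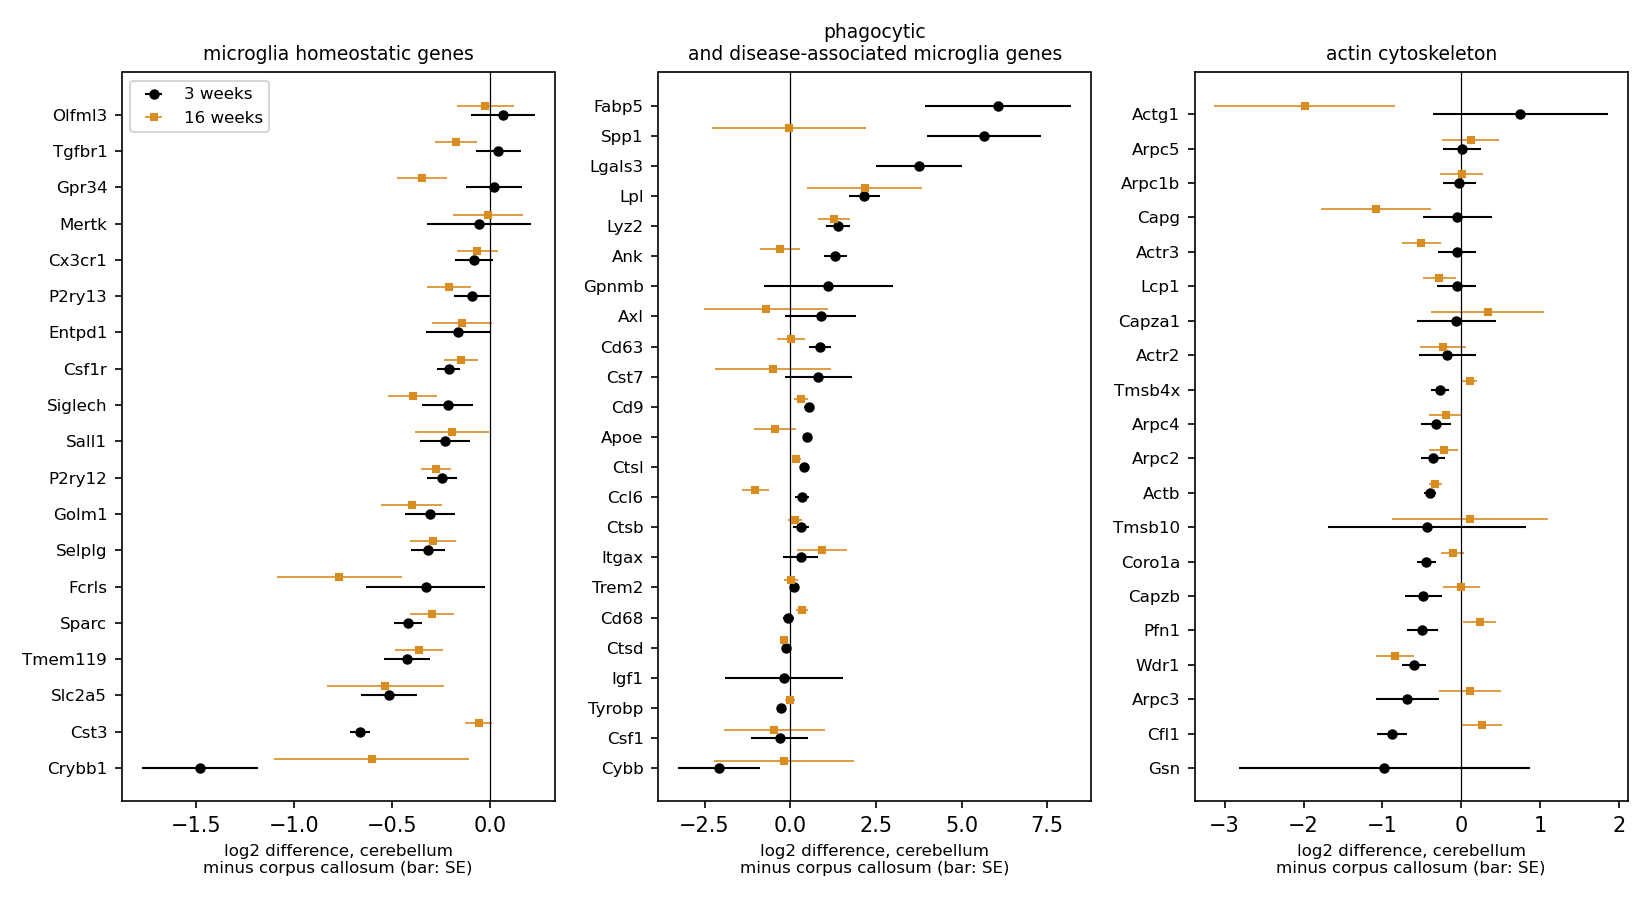
Log2 difference, cerebellum minus corpus callosum (horizontal axis, bars SE), for the members of 3 gene groups, homeostatic, phagocytic and disease-associated, and actin cytoskeleton, at 3 weeks (black) and 16 weeks (orange). At 3 weeks 16 of the 19 homeostatic genes drawn and 18 of 20 actin genes lie below 0 and 17 of 23 phagocytic genes above it. The medians of the 3 whole groups were -0.22, -0.34 and 0.48.

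Genes of phagocytic and disease-associated microglia leaned the other way. Of 24 listed, 23 had enough counts to be tested, and 17 of these were higher and 6 lower in cerebellum, with a median log2 difference of 0.48. By edgeR 0 passed the adjusted threshold. At an unadjusted p below 0.05, 10 were higher and 0 lower, beside 2.83% and 2.66% of all genes. DESeq2 called 5 (Ank, Apoe, Cd9, Lpl and Lyz2), beside 0.886% of all genes. Groups did not overlap for 9 of the 23, all higher in cerebellum, where 6.43% of all genes did so. At 16 weeks the median of the list was -0.0014. Several members rested on few cells, as given below.

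Apoe, the main lipid-carrying apolipoprotein of the brain, had 3599, 4442 and 4388 CPM in cerebellum and 2858, 3051 and 2981 CPM in corpus callosum. The groups did not overlap and the log2 difference was 0.48 ± 0.10 (adjusted p = 0.592 by edgeR, 0.012 by DESeq2). With each cell weighted equally it was 0.26 (limma adjusted p = 0.600). Apoe is also abundant in astrocytes. Reads of it were found in 160 of 167 and 157 of 179 cells, and the thinned shares of cells were 98.2, 97.96 and 91.2% in cerebellum and 85.7, 91.7 and 82.5% in corpus callosum. The shares overlapped through cerebellum replicate 3. At 16 weeks the log2 difference was -0.45 ± 0.62.

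Lpl, lipoprotein lipase, which frees fatty acids from lipoproteins, had 223, 347 and 118 CPM in cerebellum and 36.2, 42.9 and 74.0 CPM in corpus callosum. Every cerebellum sample was above every corpus callosum sample, at a log2 difference of 2.17 ± 0.45 (adjusted p = 0.592 by edgeR, 0.00028 by DESeq2). It came from 28 cerebellar and 20 callosal cells, and 1 cell gave 28.3% of the cerebellar counts. The thinned shares of cells with a read overlapped. Over all 51 samples Lpl averaged 223 CPM in cerebellum and 51.6 CPM in corpus callosum at 3 weeks, 7.11 CPM in corpus callosum at 16 weeks and 33.9 CPM in cerebellum at 16 weeks.

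Lyz2, lysozyme of myeloid cells, had 171, 184 and 286 CPM in cerebellum and 49.7, 92.7 and 103 CPM in corpus callosum, a log2 difference of 1.38 ± 0.35 at 3 weeks and 1.27 ± 0.47 at 16 weeks. The groups did not overlap at 3 weeks, and reads were found in 62 of 167 cerebellar and 41 of 179 callosal cells. The tetraspanin genes Cd9 (1164, 1292 and 1035 against 753, 751 and 885 CPM) and Cd63 (158, 134 and 252 against 93.6, 76.4 and 125 CPM) and the cathepsin gene Ctsl (1161, 1272 and 1454 against 999, 975 and 949 CPM) were also higher in each cerebellum sample. Their log2 differences were 0.55 ± 0.13, 0.88 ± 0.32 and 0.41 ± 0.12. Ank, a pyrophosphate exporter, had a log2 difference of 1.32 ± 0.35.

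The osteopontin gene Spp1 showed how much a single cell can carry. Its level was 95.9, 3569 and 124 CPM in cerebellum and 2.97, 47.0 and 25.9 CPM in corpus callosum, and 1 cell of replicate 2 gave 94.1% of all cerebellar Spp1 counts. Reads were found in 19 cerebellar and 14 callosal cells. Lgals3, galectin 3, had reads in 6 and 3 cells, with 1 cell giving 77.1% of the cerebellar counts. Gpnmb had reads in 5 and 2 cells, Igf1 in 7 and 8, Clec7a in 2 and 2, Itgax in 17 and 20 and Cst7 in 10 and 7. Trem2, the lipid-sensing receptor of microglia, and its adaptor Tyrobp had overlapping groups, at log2 differences of 0.12 ± 0.14 and -0.25 ± 0.14. Axl, a receptor for bridges to phosphatidylserine on dying cells, had reads in 32 cerebellar and 13 callosal cells, and its levels overlapped at 181, 65.2 and 125 against 1.95, 98.2 and 101 CPM.

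The wider lipid genes did not move as 1 group. Of 21 tested genes of lipid transport and storage, 13 were higher and 8 lower, with a median of 0.22. Groups did not overlap for 4 that were higher, among them Apoe, Lipa and Lpl, and 3 that were lower (Lrp1, Npc1 and Nr1h2), beside 6.43% and 6.36% of all genes. The median of this list ran from 0.02 to 0.31 over the 18 alternatives. Npc1, which moves cholesterol out of lysosomes, had 123, 129.8 and 203 CPM in cerebellum and 344, 349 and 238 CPM in corpus callosum (log2 -1.03 ± 0.27). Of 21 genes of cholesterol synthesis 15 were higher and 6 lower, with a median of 0.40 and no overlap for 4 (Cyp51, Hsd17b7, Idi1 and Sc5d, all higher, where 6.43% of all genes were). Its median ran from 0.09 to 0.67 over the 18 alternatives, and edgeR called 0 of the lipid and cholesterol genes. At an unadjusted p below 0.05, 4 of the lipid genes were higher and 2 lower, and 2 of the cholesterol genes were higher. Over all genes 2.83% were higher and 2.66% lower at that level. DESeq2 called 3 lipid and 0 cholesterol genes, beside 0.886% of all genes.

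Genes of the actin cytoskeleton, which drives the movement of microglial processes, were mostly lower in cerebellum. Of 20 tested, 18 were lower and 2 higher, with a median log2 difference of -0.34 and 0 past edgeR's adjusted threshold. Groups did not overlap for 8, all lower, where 6.36% of all genes did so. At an unadjusted p below 0.05, 7 were lower, beside 2.66% of all genes, and DESeq2 called Cfl1. The median at 16 weeks was -0.11. The summed level of the list was 12210.1, 11665 and 11529 CPM in cerebellum and 15166, 14714 and 16015 CPM in corpus callosum.

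Actb, beta-actin, which has near-identical copies in the genome, made up most of that sum, with 6720.1, 6451 and 5966 CPM in cerebellum and 8196, 8233 and 8835 CPM in corpus callosum. The groups did not overlap, and the log2 difference was -0.40 ± 0.07 (adjusted p = 0.592 by edgeR, 0.058 by DESeq2). Cfl1, cofilin, which severs actin filaments, had 168, 143 and 151 CPM in cerebellum and 309, 264 and 276 CPM in corpus callosum. Its log2 difference was -0.88 ± 0.19 at 3 weeks and 0.26 ± 0.25 at 16 weeks. After thinning, 89.1, 95.9 and 91.2% of cerebellar and 98.2, 98.3 and 100% of callosal cells held a Cfl1 read. These shares did not overlap, where 8.39% of all genes were lower in this way, and Cfl1 was named on these same samples. Fscn1, the actin bundler fascin, which was named for its small p and is not one of the 20 listed genes, had 259, 274 and 210.1 CPM in cerebellum and 637, 451 and 459.6 CPM in corpus callosum, a log2 difference of -1.06 ± 0.20. Coro1a (-0.44 ± 0.12), Wdr1 (-0.60 ± 0.15), Pfn1 (-0.50 ± 0.20) and Arpc2 (-0.36 ± 0.15), which regulate filament assembly and turnover, were lower without overlap.

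The rule for naming genes gave 10 genes in each direction, of which Cst3 passed edgeR's adjusted threshold. The other 19 each had an edgeR adjusted p of 0.592 and did not pass. DESeq2 called 19 of the 20, all but Actb. In each of the 18 alternatives all 20 kept their direction. Since the rule asks for groups that do not overlap, their separation is no result.

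Among those lower in cerebellum, Tacc3, a protein of the mitotic spindle, had no read in any of the 167 cerebellar cells. It stood at 25.9, 25.3 and 25.7 CPM in corpus callosum, from 4, 3 and 8 cells of the 3 samples. Against a floor of 3 counts over the cerebellum group, the difference came to 281.9-fold, a value that covers the counting error of reads only. Reads are not molecules here, and all callosal Tacc3 reads came from 15 of 179 cells. The value is therefore no lower bound on the difference between the cells of the regions. Zfp286, a zinc finger gene, had 0.868, 1.02 and 1.47 CPM in cerebellum and 24.96, 22.7 and 20.9 CPM in corpus callosum, from 5 and 13 cells. Tmem263 had 9.15, 9.69 and 6.50 against 49.7, 45.3 and 38.8 CPM, with a log2 difference of -2.40 ± 0.49 at 3 weeks and -2.38 ± 0.88 at 16 weeks. With each cell weighted equally the 3-week value of Tmem263 was -1.53. Ckb, brain creatine kinase, had 283, 282 and 279 CPM in cerebellum and 461, 422 and 549 CPM in corpus callosum, with reads in 139 and 173 cells. Its thinned shares of cells, 87.3, 91.8 and 91.2% and 96.4, 96.7 and 96.5%, did not overlap. The shares of 8.39% of all genes were lower in this way, and Ckb was named on these same samples.

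The 10 genes named as higher in cerebellum included Malat1, Kcnq1ot1, Clk1 and Cpsf6. Malat1, a long noncoding RNA kept in nuclear speckles, had 3570.5, 4066 and 4056 CPM in cerebellum and 2914, 2895 and 2602 CPM in corpus callosum. Its log2 difference was 0.48 ± 0.09 at 3 weeks and 0.41 ± 0.12 at 16 weeks. Kcnq1ot1, a noncoding RNA of an imprinted locus, had 116, 123 and 155 against 47.8, 65.9 and 52.1 CPM. Clk1, a kinase of splicing factors, had 927, 839 and 957 against 617, 605 and 543 CPM, and Cpsf6, a subunit of the cleavage factor for messenger RNA 3' ends, 177, 222 and 212.15 against 103, 93.3 and 88.2 CPM. The log2 differences of these 3 were 1.25 ± 0.28, 0.63 ± 0.13 and 1.10 ± 0.22, and none of the 4 genes differed between the regions in its thinned share of cells without overlap. Median mitochondrial shares of the samples lay between 1.3% and 2.1%.

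C3ar1, the receptor for the complement fragment C3a, was higher in level and in the share of cells. It had 501, 613 and 449 CPM in cerebellum and 133, 226 and 273 CPM in corpus callosum, a log2 difference of 1.31 ± 0.28 (adjusted p = 0.592 by edgeR, 0.0011 by DESeq2). After thinning, 41.8, 59.2 and 38.2% of cerebellar cells held a read, against 16.1, 23.3 and 29.8% of callosal cells. Neither the levels nor the shares overlapped, and the shares of 4.28% of all genes were higher in this way. C3ar1 was named for levels that do not overlap in these same samples, so neither is separate support. The ubiquitin ligase gene Wwp1 had 40.1, 70.4 and 60.6 against 14.5, 8.89 and 16.1 CPM and shares of 23.6, 18.4 and 35.3% against 16.1, 10.0 and 15.8%. Sat1, a polyamine acetyltransferase, had 842, 934 and 988 against 650.4, 557 and 610.1 CPM. Zfp472 had 114, 63.0 and 60.9 against 15.9, 25.5 and 15.7 CPM, from 18 and 13 cells.

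Of the 20 named genes, 9 had thinned shares of cells that did not overlap between the regions. C3ar1 and Wwp1 were higher in cerebellum, where 4.28% of all genes tested were, and Tacc3, Zfp286, Fscn1, Crybb1, Tmem263, Cfl1 and Ckb were lower, where 8.39% were. The shares of Wwp1 overlapped without thinning, and those of Zfp286 overlapped without plate columns 1 and 2. Each such exact two-sided permutation test gave p = 0.1, which is the smallest possible with 3 samples against 3. The genes were picked on these same samples.

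The C1q genes were close in the 2 regions. C1qa, C1qb and C1qc, the chains of the recognition molecule of the classical pathway, had log2 differences of -0.02 ± 0.10, -0.02 ± 0.09 and 0.07 ± 0.10, each with overlapping groups. Itgam, which encodes the CD11b chain of complement receptor 3 used at the sort, had 1083, 968 and 1049 CPM in cerebellum and 1312, 1384 and 1278 CPM in corpus callosum. The groups did not overlap, at a log2 difference of -0.36 ± 0.11 at 3 weeks and -0.41 ± 0.15 at 16 weeks (edgeR adjusted p = 0.600 at 3 weeks). Of 14 complement genes tested, 9 were higher and 5 lower.

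Antigen presentation and interferon genes were split between higher and lower. Of 9 MHC class II genes tested 5 were higher and 4 lower, of 15 MHC class I genes 7 were higher and 8 lower, and of 24 type I interferon response genes 11 were higher and 13 lower. In these 3 lists edgeR and DESeq2 called 0 genes, and 0 had an unadjusted p below 0.05. H2-D1, a class I heavy chain whose reads are hard to separate from related genes, had 968, 673 and 542 CPM in cerebellum and 398, 722 and 800.2 CPM in corpus callosum, with wide overlap. Cd74 and H2-Ab1, of the class II pathway, had reads in 26 and 10 cerebellar and 34 and 21 callosal cells. Ifit3, induced by interferon, had a log2 difference of -0.57 ± 1.46. Of 29 lysosomal genes 12 were higher and 17 lower, with a median of -0.04. At an unadjusted p below 0.05 by edgeR, 4 of them were higher and 0 lower, beside 2.83% and 2.66% of all genes. Groups did not overlap for 3 higher (Cd63, Ctsl and Ctsz) and 2 lower (Atp6v0d1 and Scarb2), beside 6.43% and 6.36% of all genes. EdgeR and DESeq2 called 0 of the lysosomal genes.

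Stress and activation genes were followed because tissue dissociation can induce them. Of 20 immediate early and stress genes tested, 7 were higher and 13 lower in cerebellum, with a median of -0.26 and no overlap for 4 lower (Atf3, Ier5, Nr4a1 and Rhob) and 1 higher (Zfp36), beside 6.36% of all genes lower and 6.43% higher. At an unadjusted p below 0.05, 3 were lower (Atf3, Nr4a1 and Rhob) and 0 higher, where 2.66% of all genes were lower. EdgeR called 0 of the 20 and DESeq2 called 2 (Atf3 and Nr4a1), beside 0.886% of all genes. Jun and Egr1 had log2 differences of 0.06 ± 0.24 and -0.47 ± 1.69, with overlapping groups, and Fos had reads in 1 cerebellar and 1 callosal cells. Of 20 chemokines and cytokines 8 were higher and 12 lower, and Ccl3 and Ccl4 had -0.81 ± 0.57 and -1.92 ± 0.85, also overlapping. Nr4a1 rested on 1 cerebellar and 4 callosal cells and Atf3 on 12 and 14.

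Of 75 nuclear genes of oxidative phosphorylation, 53 were lower and 22 higher in cerebellum, with a median of -0.22 at 3 weeks and 0.02 at 16 weeks. Groups did not overlap for 10 lower and 3 higher members, beside 6.36% of all genes lower and 6.43% higher. Sdha, a subunit of complex II, had 212.97, 257 and 234 CPM in cerebellum and 357, 359 and 409 CPM in corpus callosum, and Atp5b, of ATP synthase, 557, 438 and 396 against 606, 733 and 779 CPM. Of 75 cytosolic ribosomal protein genes 52 were higher and 23 lower, with a median of 0.16 and no overlap for 8, all higher. That median ran from 0.10 to 0.23 over the 18 alternatives. Many ribosomal protein genes have processed copies in the genome, so their counts are uncertain. Of both groups edgeR called 0, 3 of the first were lower and 2 of the second higher at an unadjusted p below 0.05, beside 2.66% of all genes lower and 2.83% higher, and DESeq2 called Sdha.

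Receptors and regulators of microglia gave no further call. Of 30 cytokine and chemokine receptors 14 were higher and 16 lower in cerebellum, of 28 Fc, Toll-like and sialic acid receptors 11 and 17, of 10 purinergic receptors and ectonucleotidases 4 and 6, and of 26 transcription factors 13 and 13. Ifnar2, a chain of the type I interferon receptor, had 294, 262 and 239 CPM in cerebellum and 196, 181 and 180.3 CPM in corpus callosum, without overlap (log2 0.51 ± 0.18). P2rx4, an ATP-gated channel, had 224, 268 and 135 against 117, 87.1 and 121 CPM (log2 0.95 ± 0.30), and Nfkb1, a subunit of NF-kappa-B, 141, 101 and 107 against 216.19, 144 and 189 CPM (log2 -0.66 ± 0.25), both without overlap. Without overlap were 2 higher and 1 lower of the 30 cytokine and chemokine receptors and 2 and 2 of the 10 purinergic genes. Of the 26 transcription factors 1 was higher and 2 were lower without overlap. Over all genes 6.43% were higher and 6.36% lower in this way. Of 23 genes for the recognition and engulfment of dying cells 13 were higher and 10 lower, of 17 iron and heme genes 6 and 11, of 17 TGF-beta genes 9 and 8, and of 16 glycolysis genes 5 and 11. EdgeR called 0 genes of these 8 lists. At an unadjusted p below 0.05, 6 list entries were higher and 6 lower, beside 2.83% and 2.66% of all genes. DESeq2 called 2, beside 0.886% of all genes.

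Genes of dividing cells had few reads in both regions. The summed level of 20 G2/M genes was 44.2, 26.8 and 18.3 CPM in cerebellum and 32.3, 117 and 37.3 CPM in corpus callosum. Mki67 had reads in 5 cerebellar and 1 callosal cells and Top2a in 4 and 4.

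Markers of the tissue around the cells were read in the same way. The 12 oligodendrocyte and myelin genes summed to 402, 348 and 372 CPM in cerebellum and 489, 534 and 582 CPM in corpus callosum, and the groups did not overlap. Of the 6 tested, 5 were lower in cerebellum. Mbp, myelin basic protein, had reads in 17 cerebellar and 39 callosal cells, while Mog had none in either. Trf, transferrin, which other cells also express, made up the largest part of that sum, with 269, 197 and 290.4 against 320.3, 306 and 310.3 CPM. The 12 granule neuron markers summed to 14.5, 30.0 and 12.6 CPM in cerebellum and 18.2, 32.6 and 29.9 CPM in corpus callosum, and the groups overlapped. The part of these markers in the region differences was not tested.

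The 15 border macrophage genes summed to 278, 231 and 431 CPM in cerebellum and 213.36, 236 and 200.1 CPM in corpus callosum, which overlapped. The largest part of each sum was Stab1, at 176, 116 and 369 against 182, 210.4 and 145 CPM. Mrc1 stood at 58.6, 99.3 and 30.7 CPM in cerebellum and 9.58, 0 and 0 CPM in corpus callosum, and Lyve1 had reads in 4 and 0 cells. Clec10a and Cd209f had no reads. Without the 2 cells that held reads of at least 3 of 9 border macrophage markers, the log2 difference of Cst3 was -0.67.

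At 16 weeks, with 4 samples per region and 331 cells, 1 of 11025 genes passed the same test (0.00907%). It was Rn18s-rs5, a ribosomal RNA repeat unit annotated on chromosome 17, higher in cerebellum by 0.72 ± 0.07 on the log2 scale (edgeR adjusted p = 0.0112), and its log2 difference at 3 weeks was 0.06 ± 0.09. This call was lost in 6 of the 8 fits that left out 1 sample, all but those without cerebellum replicate 4 or corpus callosum replicate 2 (edgeR adjusted p = 0.0516 to 0.113 in the 6). Cerebellum lies on plate P218 and corpus callosum on P217 at 16 weeks, so region and plate cannot be told apart for Rn18s-rs5.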

How the data were processed

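Reads were aligned with STAR 2.5.2b and counted with featureCounts 1.6.2 on GRCm38, per the submitters' processing notes. The authors deposited raw read counts per gene and well. The annotation release is not given in the sources used here. A length per gene, per the file headers, was not used.

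In the deposited table, a well of plate column 1 or 2 also held the counts of same-plate wells whose names begin with its own (A1: A10 to A19), and these were subtracted. Wells with at least 500 genes and at most 20% mitochondrial counts were kept, summed per region sample, and tested with edgeR 4.0.16 (quasi-likelihood, TMM, robust, filterByExpr, R 4.3.3) at a Benjamini-Hochberg threshold of 0.05. Alternatives used DESeq2 1.42.0 and limma 3.58.1 (on log2 of mean CPM plus 1). CPM were scaled by TMM. The fit on cells thinned to the same number of reads was chosen after seeing the data. The tests were tried on simulated data. The 4 blank wells of plate P215 were left out.

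Named genes were those called, plus those with the smallest p until 10 were named in each direction (mean CPM of at least 20 in the higher region, no overlap, no predicted genes), plus a fixed panel. The members and gene lists were chosen with earlier results of these data known. Intervals and floors cover counting error only. Values of a few members of the gene lists are not reported here, though the counts over a list include them.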

Additional observations from a re-analysis of the deposited data

Results flagged for a closer look

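In 4 genes the region difference itself differed between the ages (edgeR interaction test over 14 samples). Cst3 differed by 0.648 on the log2 scale (adjusted p = 0.0197), as described in the report. Gm10800 and Gm10801, neighbouring predicted genes on chromosome 2 (chr2:98666547-98667301 and chr2:98662237-98664083, GRCm38), named here after their values were seen, differed by -5.16 and -4.79 (adjusted p = 0.0277 each). Gm10800 stood at 2299, 4522 and 5762 CPM in cerebellum and 1065, 478 and 577 CPM in corpus callosum at 3 weeks, and at 384, 1188, 219.8 and 929 CPM in cerebellum and 2143, 5623, 2265 and 6360.2 CPM in corpus callosum at 16 weeks. Gm10800 was thus high in cerebellum at 3 weeks and in corpus callosum at 16 weeks, and the groups overlapped at neither age. Both of these groups filled columns 13 to 24 of their plates, and the groups they were compared with filled columns 1 to 12. On every plate of the series the mean Gm10800 level was higher in columns 13 to 24. It was 3445 against 1110 CPM on plate P212, 1682 against 1263 on P214 and 1963 against 420 on P216. The part of plate side in these differences was not tested. Gm10801 was at 812, 1509 and 2115 against 439, 257 and 236 CPM at 3 weeks and at 146, 417, 87.9 and 311 against 820.2, 1619, 824 and 2342 CPM at 16 weeks. Within each age neither gene passed (edgeR adjusted p = 0.592 at 3 weeks and 0.617 at 16 weeks). Reads shared with similar sequences elsewhere were not examined, so both counts are uncertain. Both lost the call in 7 of 14 fits that left out 1 sample (adjusted p = 0.0623 to 0.163), those without replicate 2 of either region at 3 weeks, corpus callosum replicate 3 at 3 weeks, and cerebellum replicates 1 and 4 and corpus callosum replicates 2 and 4 at 16 weeks.

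Rn18s-rs5 differed by 0.701 (adjusted p = 0.0475), with 13443, 12841, 12499.7 and 14405 CPM in cerebellum and 7522, 7955, 8130.2 and 8094 CPM in corpus callosum at 16 weeks. It lost the call in 13 of 14 such fits, all but that without cerebellum replicate 3 of 3 weeks (adjusted p = 0.0663 to 0.221 in the 13). At 3 weeks the regions overlapped, at 6982, 7498 and 8870.5 against 7485, 7533 and 7603 CPM. At 16 weeks they lie on different plates, P218 and P217, so region and plate cannot be told apart there. Over all genes the median of this difference between ages was -0.11.

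Cst3, Sparc, Lpl and Gm10800 were each checked in every group of 4 samples for 1 sample far from the other 3. Of these 36 checks 2 found one, where chance gives about 1 in 20. The checks share samples and are not independent. Cst3 stood at 45096.2 CPM in 1 spinal cord sample of 16 weeks against 30964 to 32616 in the others. Lpl stood at 113.791 CPM in 1 cerebellum sample of 16 weeks against 0.0928 to 12.9 in the others.

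On plate P215, 2 of the 4 wells without a cell, in rows O and P of column 24, held 618 and 2069 genes, the second from 20404 counts, 747 of them Cst3. The other 2, in column 12, held 248 and 187 genes. Over all 28 blank wells of the series the median was 3472.5 counts, and 3 held at least 500 genes.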

How the results depend on the processing

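At 3 weeks 1 gene passed, and 0 with the counts as deposited, 111 with DESeq2, 37 with no filter on low counts, 3 with each cell weighted equally (limma) and 0 to 1 when 1 sample was left out. The 3-week count was 1 in the other settings. At 16 weeks 1 passed, and 41 with DESeq2, 22 with no filter, 6 with equal cell weights and 0 to 1 with 1 sample left out. Of the difference between ages, 4 genes passed, and 0 as deposited, 2 without plate columns 1 and 2, 163 with DESeq2, 2 with RLE size factors, 16 with no filter, 15 with equal cell weights and 0 to 5 with 1 sample left out. The cause was not tested. Unadjusted p-values below 0.05 numbered 688, 477 and 1243 in these 3 comparisons. With the counts as deposited the regions differed by -1435.8 in median genes and -161394 in median reads per cell, against -321.5 and -92670 after subtraction, since the shared wells then count more than once. With no filter the median log2 difference of all genes moved to 0.31 at 3 weeks, and with equal cell weights to 0.21.

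Samples with the same replicate number were not treated as pairs. Regions shared mice, but the labels do not say that a number marks a mouse. Deviations from the group means correlated at 0.02, 0.03 and 0.05 between same-numbered samples over 6695 genes, where each sample correlated best with its own number. With a replicate block 1 gene passed at 3 weeks, 3 at 16 weeks and 7 for the difference between ages.

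Depth limits genes read in few cells: 1 cell gave 94.1% of the cerebellar Spp1 counts.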
